A study of Rattus norvegicus with 14 samples.

Results

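The genes described here were 10 genes that mark intestinal stem cells or respond to Wnt signals: Lgr5, Ascl2, Olfm4, Axin2, Smoc2, Ephb2, Ephb3, Sox9, Myc and Lrig1. A probe belonged to the set when the gene name given by the array design was 1 of these names, and all 10 genes were on the array, with 12 of its 30367 probes. The array carried 26276 gene names in all. The RNA came from colonocytes (epithelial cells of the colon lining) of male Wistar rats bought at 5 to 6 weeks of age and fed a standard diet for 1 week. For 15 days, 7 rats had then received a normal-protein diet (NPD, 14% of energy from protein) and 7 a high-protein diet (HPD, 55%), of equal energy content and both made with whole milk protein that replaced starch and sucrose in the HPD. Cells were loosened from the whole colon except its last segment with EDTA, and the RNA of each rat was hybridised to its own 1-colour Agilent array. The preparation mixed all cells that this treatment releases, so fewer cells of a type and less RNA per cell cannot be told apart.

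The colonic epithelium renews itself from stem cells at the base of the crypts. Wnt ligands bind Frizzled and Lrp receptors, β-catenin then accumulates, enters the nucleus with TCF/LEF factors and switches on target genes, and R-spondins, by way of Lgr receptors, strengthen the signal. Cells that leave the crypt base lose this signal, stop dividing and differentiate into absorptive, goblet and other cells on their way to the surface. Lgr5, a receptor of R-spondins, and Ascl2, a transcription factor, are the best known markers of cycling stem cells, and Ephb2 and Ephb3 are receptors that keep cells in their place along the crypt. The comparison asks whether the RNA of these genes differed between colonocytes of the 2 diets.

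Each measurement rests on an oligonucleotide of 60 bases fixed to the array. Those below are examples: the Lgr5 probe with the single outlying array, both readers of Wnt output (Axin2 and Sox9), the dimmer of the Smoc2 probes and the single-spot Ephb2 probe. All letters are in lower case because no stretch was singled out, and positions are those of the array design on rat build rn4.
Lgr5 A_64_P102796, chr7:54738144-54738203, minus strand: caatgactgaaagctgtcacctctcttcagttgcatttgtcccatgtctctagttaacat
Axin2 A_44_P262371, chr10:98321105-98321164, plus strand: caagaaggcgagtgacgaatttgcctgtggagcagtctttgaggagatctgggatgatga
Sox9 A_64_P033293, chr10:102393822-102393881, plus strand: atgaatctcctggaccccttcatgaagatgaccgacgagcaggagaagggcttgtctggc
Smoc2 A_64_P121722, chr1:53289936-53289995, plus strand: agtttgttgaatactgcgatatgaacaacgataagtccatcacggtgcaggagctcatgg
Ephb2 A_64_P030373, chr5:155423038-155423097, minus strand: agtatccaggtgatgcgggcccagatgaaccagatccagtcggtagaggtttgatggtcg

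The second Lgr5 probe (A_64_P003572) lay 193 bases from the first on the genome, and the 2 Smoc2 probes were 5053 bases apart. Of the promoters in the RefSeq table (build GRCr8, 250 bases before to 50 after the start of a gene), 6 belonged to these genes. The core sequence that TCF/LEF factors recognise, CTTTGAT, read on both strands, was present in 1 of the 6, that of Axin2, and in 3.63% of all 33469 promoters. In Axin2 it began 132 bases before the start, and its surroundings (chr10:94398642-94398670, plus strand, motif in capitals) read ttactttcttgCTTTGATgttgggtagat. A match of these letters is no proof of a binding site.

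None of the 10 genes was called as differentially expressed between the diets, which does not show that they were unchanged. Values are log2 signals of a probe relative to the median of its array, and a probe was called when its q-value, adjusted over all probes by the Benjamini-Hochberg method in limma, was below 0.1. At this threshold 17 probes of the array, or 0.056%, were called, and 0 of the 12 probes. At an unadjusted p below 0.05, a level reached by 11.4% of all probes, the count was also 0 of 12. In none of the genes did the 7 HPD values lie all above or all below the 7 NPD values, a pattern shown by 0.273% of all probes. Of the 10 genes, taking the brightest probe of each, 6 had a higher and 4 a lower mean in the HPD group, and the median difference was 0.024 on the log2 scale against 0.105 over all probes.

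**Figure D1:**
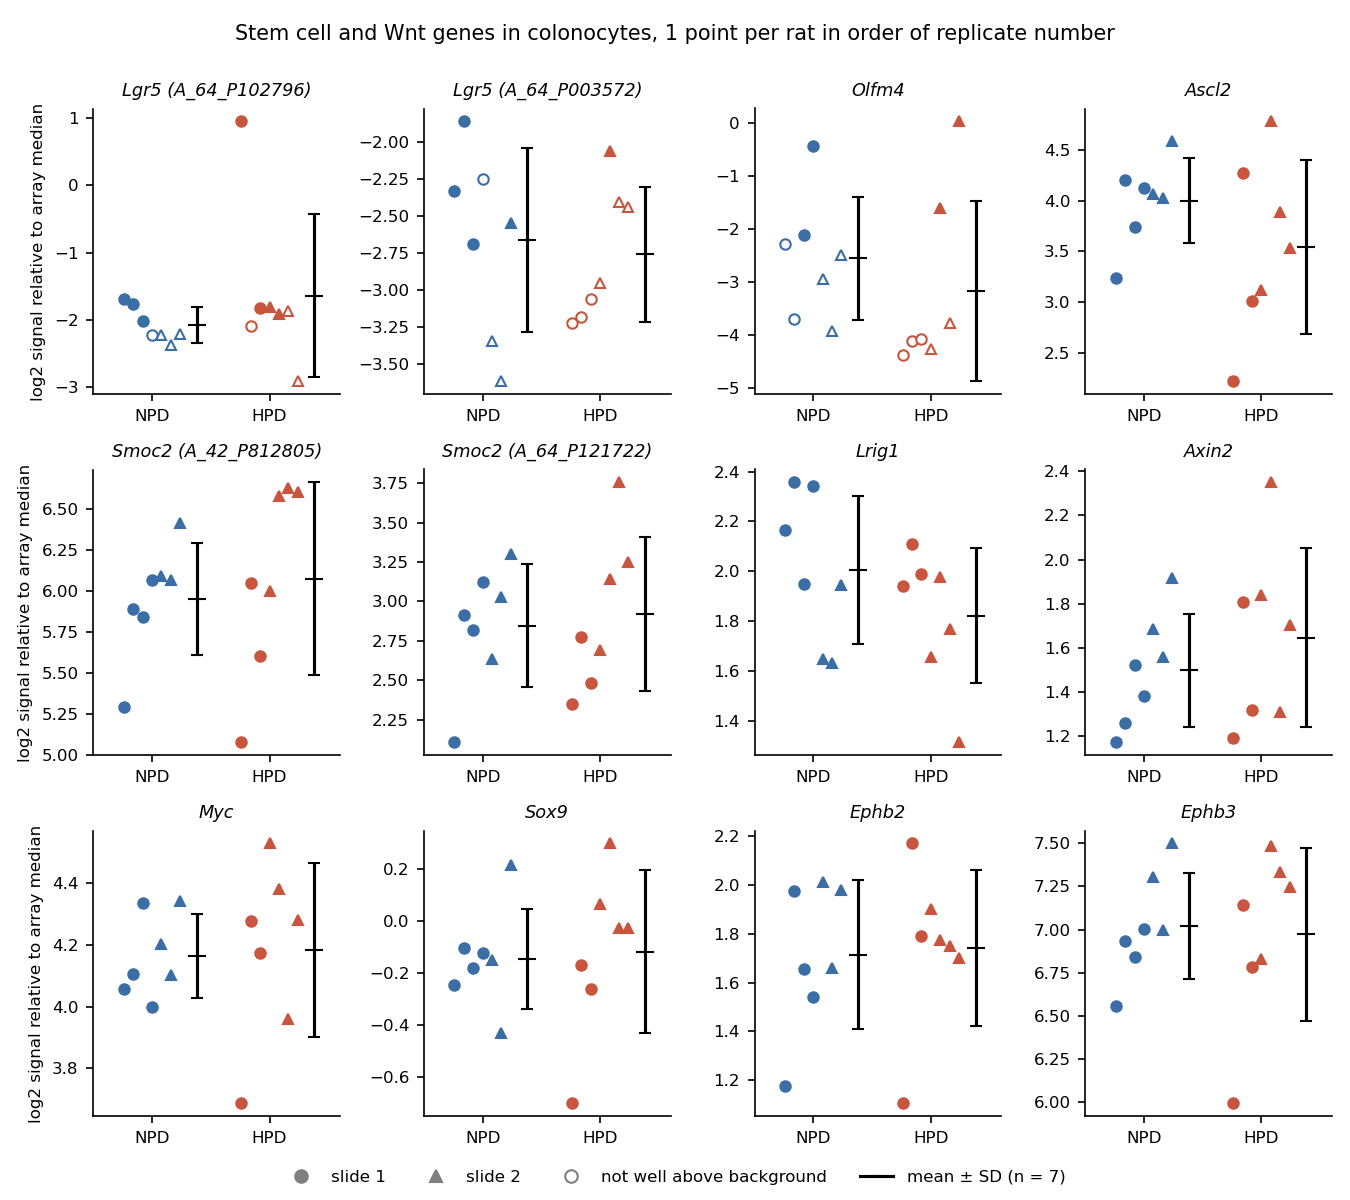
Log2 signal relative to the array median (y axis, a different range in each panel) of the 12 probes in NPD and HPD rats (x axis), with 1 point per rat. Circles are slide 1, triangles slide 2, open symbols a signal not well above background, and bars the mean ± SD of 7 rats. The groups overlap in every panel, and the lone HPD circle at 0.95 in the first Lgr5 panel is replicate 1.

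Each array had 18835 to 20967 probes well above background, and pairs of arrays correlated at 0.97 to 0.992 over all probes. All 8 epithelial markers on the list (such as Epcam and Krt8) were well above background, with a mean log2 level of 8.80 to 9.28 on each array, so epithelial RNA was present as labelled. Immune markers were also present, 8 of 14 above background, and their mean level was highest in NPD replicate 4 (2.83, against 1.35 to 2.02 on the other 13 arrays). The arrays were on 2 slides, each holding both diets (slide 1, 4 NPD and 3 HPD, and slide 2, 3 NPD and 4 HPD), and 12164 probes were called for slide when slide was added to the model.

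Lgr5 and Olfm4 were at the limit of detection, whereas Ascl2 was well above background on every array. Lgr5 probe A_64_P102796 was well above background on 3 of 7 NPD and 4 of 7 HPD arrays. Its lowest, median and highest log2 values were -2.38, -2.22 and -1.69 in NPD rats and -2.92, -1.87 and 0.95 in HPD rats. The HPD values lay around the NPD range apart from replicate 1 at 0.95 and replicate 7 at -2.92. The mean difference (HPD minus NPD) was 0.44 with a 95% interval of -0.47 to 1.34 (adjusted p = 0.616, exact two-sided permutation p = 0.499), and without HPD replicate 1 it was 0.005.

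The second Lgr5 probe, well above background on 4 NPD arrays and 1 HPD array, gave the opposite sign. Its values were -3.61, -2.55 and -1.86 (lowest, median and highest) in NPD rats and -3.22, -2.95 and -2.06 in HPD rats. HPD replicate 1, so bright on the first probe, was the lowest HPD array on this one, with its 2 spots at -3.02 and -3.42. The difference was -0.10 (95% interval -0.68 to 0.48, adjusted p = 0.863), being -0.87 on slide 1 and 0.70 on slide 2. No direction for Lgr5 can be taken from these probes.

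Olfm4, a secreted glycoprotein that marks stem cells in the human intestine, was well above background on 2 arrays of each diet. Its log2 values were -3.92, -2.49 and -0.44 in NPD rats and -4.38, -4.09 and 0.02 in HPD rats (lowest, median and highest). HPD replicate 7 at 0.02 and NPD replicate 4 at -0.44 stood above the other arrays, and the highest value of all belonged to the group with the lower mean. The difference of -0.62 had an interval of -2.12 to 0.88 (adjusted p = 0.664), and it was -2.06 on slide 1 and 0.71 on slide 2. It rested on single arrays, being -0.27 without NPD replicate 4 and -1.15 without HPD replicate 7.

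Ascl2, the transcription factor that sustains the stem cell state under Wnt control, had the largest difference among the 8 genes that were well above background on all 14 arrays. Its values in NPD rats 1 to 7 were 3.24, 4.20, 3.74, 4.12, 4.07, 4.02 and 4.59. In HPD rats 1 to 7 they were 2.22, 4.28, 3.01, 3.12, 4.78, 3.89 and 3.53. The HPD group held both the lowest and the highest of the 14 values, with 5 of 7 rats below the NPD mean. Means were 3.999 ± 0.42 and 3.55 ± 0.86 (SD, n = 7), a fold of 0.731 (HPD over NPD, 95% interval 0.447 to 1.2). The log2 difference of -0.45 was not past the threshold (adjusted p = 0.518, exact permutation p = 0.237, and 0.155 within slides). Its sign was the same on slide 1 (-0.66) and slide 2 (-0.40), and without HPD replicate 1 the difference was -0.23.

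Smoc2, a secreted matricellular protein and a marker of Lgr5-positive cells, was measured by 2 probes. The brighter one (A_42_P812805) had values of 5.30, 6.07 and 6.42 in NPD rats and 5.08, 6.05 and 6.63 in HPD rats (lowest, median and highest). The medians were nearly equal, while 3 HPD rats of slide 2 lay above every NPD rat. The difference was 0.13 (95% interval -0.39 to 0.64, adjusted p = 0.802), and it was -0.20 on slide 1 and 0.26 on slide 2. Leaving out single arrays moved it from 0.015 (without NPD replicate 1) to 0.29 (without HPD replicate 1). The other probe, with group means of 2.85 ± 0.39 and 2.92 ± 0.49 (SD, n = 7), gave 0.07 (interval -0.41 to 0.56). The 2 probes thus gave differences of the same sign and similar size.

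Lrig1, a membrane protein that restrains ErbB receptors and marks a stem cell pool of the crypt, had a lower HPD mean. Its values were 2.16, 2.36, 1.95, 2.34, 1.65, 1.63 and 1.94 in NPD rats 1 to 7. In HPD rats 1 to 7 they were 1.94, 2.11, 1.99, 1.65, 1.98, 1.77 and 1.31. The lowest value was that of HPD replicate 7, 6 of 7 rats in the HPD group had a value under the NPD mean, and the medians were nearly equal (1.95 and 1.94). The fold was 0.88 (95% interval 0.698 to 1.11), with a log2 difference of -0.18 (adjusted p = 0.571, exact permutation p = 0.244).

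Axin2, a scaffold of the β-catenin destruction complex and itself a Wnt target, is widely used as a reporter of Wnt output. Its values were 1.17, 1.26, 1.52, 1.38, 1.68, 1.56 and 1.92 in NPD rats 1 to 7 and 1.19, 1.81, 1.32, 1.84, 2.35, 1.31 and 1.70 in HPD rats 1 to 7. HPD replicate 5 was the highest of all rats and both groups reached down to the same level. The fold was 1.11 (95% interval 0.848 to 1.44, adjusted p = 0.687, exact permutation p = 0.441), so folds above 1.44 or below 0.848 lay outside the interval.

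Myc, the transcription factor that drives growth and division downstream of Wnt, had 10 spots per array. In the model with diet alone, Myc had the narrowest 95% interval of the 12 probes. Its lowest, median and highest values were 3.998, 4.11 and 4.34 in NPD rats and 3.69, 4.28 and 4.53 in HPD rats. The HPD range enclosed the NPD range. The fold was 1.01 (95% interval 0.836 to 1.23, adjusted p = 0.946).

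Sox9, a transcription factor of the crypt base that Wnt signals maintain, spanned -0.43 to 0.22 in NPD rats (median -0.15) and -0.70 to 0.30 in HPD rats (median -0.03). The spread was again wider in the HPD group, whose lowest rat was replicate 1 and whose highest was replicate 5. The fold was 1.02 (95% interval 0.821 to 1.27, adjusted p = 0.931).

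The Eph receptors, which repel cells that carry ephrin-B ligands, gave the same picture. Ephb2 values were 1.18, 1.66 and 2.01 in NPD rats and 1.10, 1.77 and 2.17 in HPD rats (lowest, median and highest), a fold of 1.02 (95% interval 0.794 to 1.31, adjusted p = 0.942). Ephb3 values were 6.56, 7.00 and 7.50 in NPD rats and 5.99, 7.14 and 7.48 in HPD rats, a fold of 0.968 (interval 0.706 to 1.33, adjusted p = 0.919). In both genes the lowest of the 14 rats was HPD replicate 1, and without it the Ephb3 difference changed sign, from -0.05 to 0.12 on the log2 scale.

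**Figure D2:**
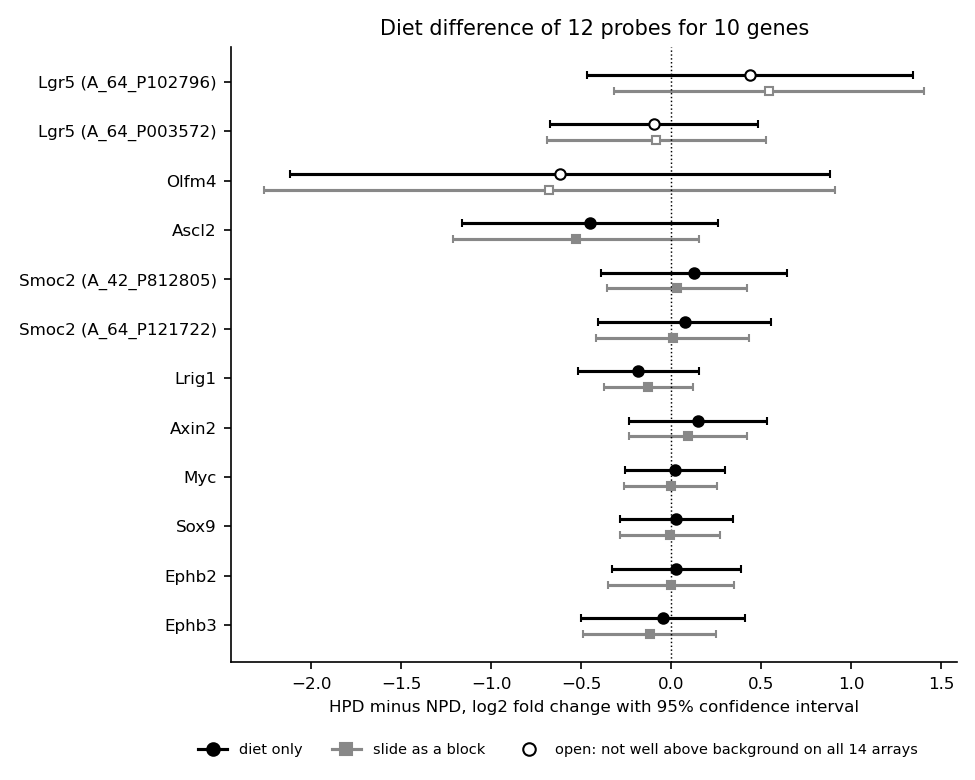
Log2 fold change (HPD minus NPD, x axis) with its 95% confidence interval for the 12 probes (y axis), from the model with diet alone (black circles) and with slide as a block (grey squares). Open symbols are probes that were not well above background on all 14 arrays. Every interval includes 0, and the narrowest among the black circles is that of Myc (-0.26 to 0.30).

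For 4 of the genes the slide, but not the diet, was past the threshold. The brighter Smoc2 probe was 0.65 higher on slide 2 than on slide 1 (log2, adjusted p = 0.0151 for slide in limma with diet and slide), Ephb3 was 0.51 higher (adjusted p = 0.0358), and Axin2 was 0.37 higher (adjusted p = 0.0776). Lrig1 was 0.40 lower on slide 2 (adjusted p = 0.0177). The dimmer Smoc2 probe was also past the threshold, 0.46 higher on slide 2 (adjusted p = 0.091). For Ascl2, Myc, Sox9 and Ephb2 the slide term was not past the threshold (adjusted p from 0.160 to 0.375). Over all probes 40.1% were called for slide, so 4 of 10 genes, on the brightest probe of each, was near the share of the whole array. Since each slide held both diets, the diet difference could be taken within slides, and with slide as a block the 12 diet differences lay between -0.68 and 0.54, none of them called, the extremes being those of Olfm4 and Lgr5.

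One rat stood apart across the set. Of the 8 genes detected on all arrays, HPD replicate 1 was the lowest of 14 rats for 6 (Ascl2, Smoc2, Ephb2, Ephb3, Sox9 and Myc), and its mean deviation from the slide mean over the 8 genes was -0.56, against -0.19 to 0.34 in the other rats. The deviation was -1.33 for Ascl2, -0.76 for Ephb3, -0.61 for Smoc2 and -0.53 for Ephb2. The same rat had the lowest mean level of the deep crypt secretory and Paneth cell markers (3.54, against 3.81 to 4.71 elsewhere), of enteroendocrine markers (4.47, against 4.73 to 5.74) and of the other stem and progenitor genes (4.04, against 4.19 to 4.60). It had the highest mean level of goblet cell markers (9.16, against 7.95 to 8.56), and also the highest of surface absorptive markers (6.51, against 5.91 to 6.49). The mean level of its epithelial markers was the highest as well (9.28, against 8.80 to 9.23). Its cycling markers (3.59) were near the lower end of the range of the others (3.53 to 4.32). The part of these levels in the low values of the 6 genes was not tested.

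**Figure D3:**
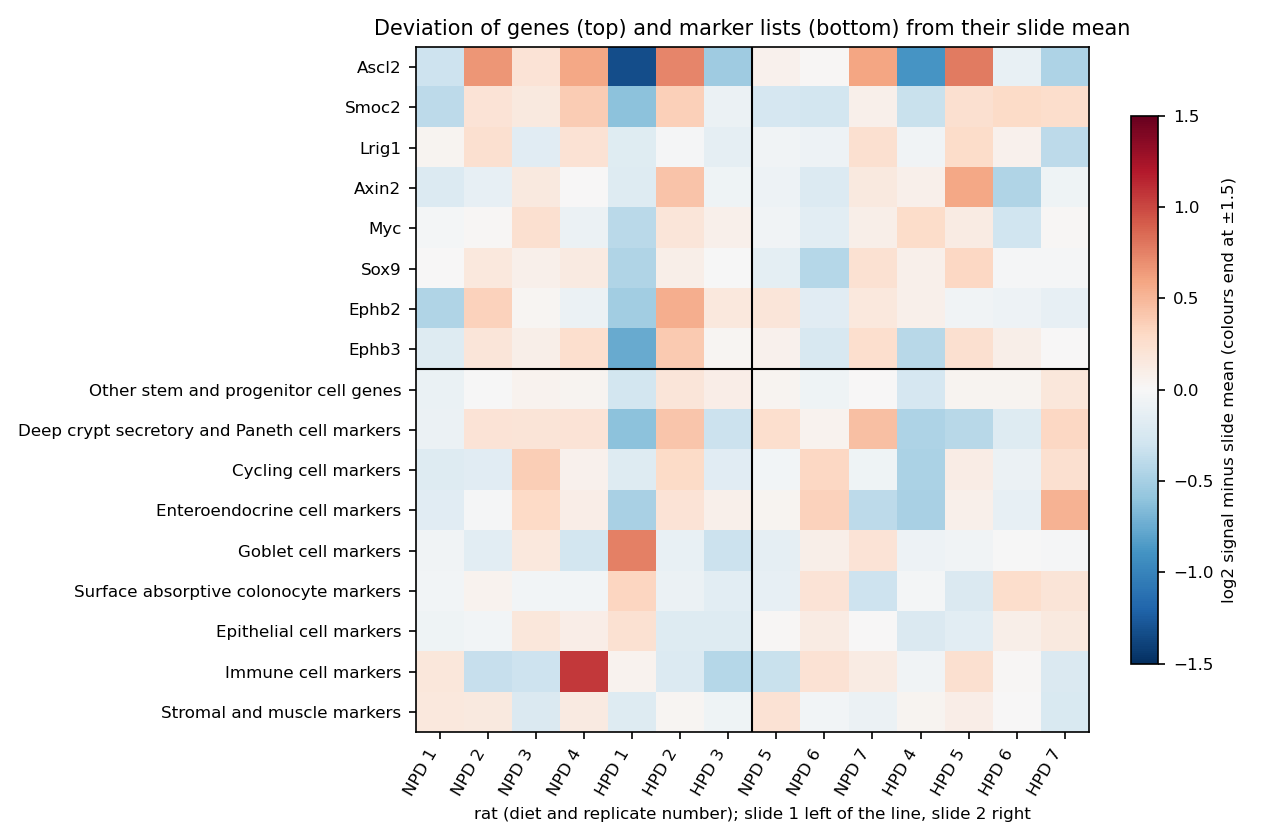
Deviation of each rat from the mean of its slide (colour, log2 units, blue below and red above) for the 8 genes detected on all arrays (upper rows) and the mean of 9 lists of marker genes (lower rows), with rats in columns. The column of HPD replicate 1 is blue in all 8 upper rows and red for goblet and surface absorptive markers.

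The spread among HPD rats exceeded that among NPD rats for 7 of these 8 genes on the brightest probe, for example an SD of 0.86 against 0.42 for Ascl2 and of 0.28 against 0.14 for Myc, with Lrig1 as the exception (0.27 against 0.30). Without HPD replicate 1 this held for 5 of the 8 genes, and the SD of the HPD group was then 0.171 for Ephb2 (NPD 0.304), 0.279 for Ephb3 (NPD 0.307) and 0.195 for Sox9 (NPD 0.194). No test of the spread was made.

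Across rats the genes varied together. After subtraction of the slide means, all 28 pairs of the 8 genes had a correlation above 0, with a median r of 0.56, whereas the median correlation of a gene with all 17431 other probes detected on every array lay between -0.13 and 0.15. Without HPD replicate 1, a setting chosen after seeing the data, 25 of 28 pairs were above 0 and the median was 0.43. All genes of an array share its RNA and its centring, so these correlations describe the rats and say nothing of shared control. With p-values adjusted over the 28 pairs, 10 pairs had an adjusted p below 0.05 by Pearson's r and 9 by Spearman's rho (permutation test within slides, 100000 resamples, two-sided).

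The closest pair was Ascl2 with Ephb3 (r = 0.89, permutation p = 7e-05, adjusted p = 0.00196, and rho = 0.87, permutation p = 0.00024, adjusted p = 0.00672, n = 14). It held on slide 1 (0.93) and slide 2 (0.81), at 0.74 without the 2 rats farthest from the median of Ascl2 and at 0.83 without HPD replicate 1. Only 0.0344% of the probes detected on all arrays correlated with Ascl2 as closely as Ephb3 did. Next was Smoc2 with Ephb3 (r = 0.87, permutation p = 0.00015, adjusted p = 0.0021, and rho = 0.79, permutation p = 0.00257, adjusted p = 0.02), with 0.94 and 0.71 on the slides and 0.79 without the 2 farthest rats. Axin2 and Myc formed another close pair (r = 0.69, permutation p = 0.00795, adjusted p = 0.039, and rho = 0.81, permutation p = 0.00158, adjusted p = 0.02), with 0.66 and 0.76 on the slides and 0.78 without the 2 farthest rats. By contrast, Myc had r = 0.35 with Ascl2 (permutation p = 0.252, adjusted p = 0.307, rho = 0.28, permutation p = 0.345, adjusted p = 0.402), which was 0.66 on slide 1, -0.12 on slide 2 and -0.01 without HPD replicate 1. Without the 2 rats farthest from the median of Ascl2 it was 0.31, so its size depended on which rats were left out.

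**Figure D4:**
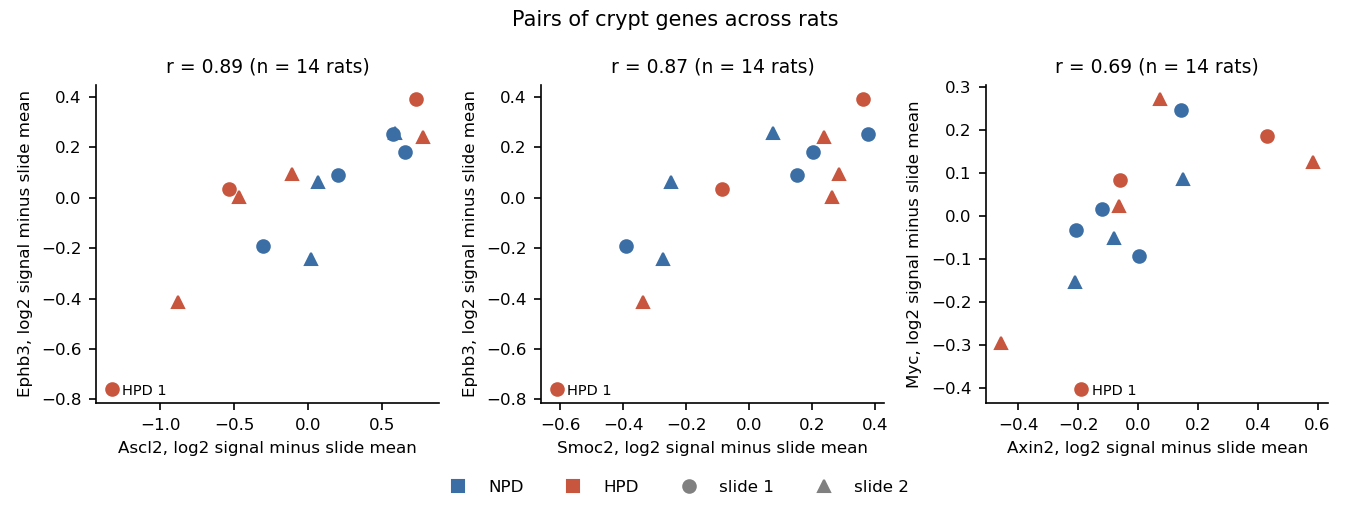
Log2 signal minus slide mean of Ephb3 against Ascl2, Ephb3 against Smoc2 and Myc against Axin2, with 1 point per rat (blue NPD, red HPD, circles slide 1, triangles slide 2) and Pearson's r over 14 rats. Rats of both diets are mixed along each trend, and HPD replicate 1 is the lowest in Ephb3 and Myc.

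For each of the 8 genes, the 3 named genes with the most similar pattern over the 14 rats (highest r after subtraction of slide means) were taken. Ephb3 was nearest to Sox4, a transcription factor of progenitor cells (r = 0.94), and Ascl2 to Rgc32 (0.94) and to Sfrp2, a secreted Wnt inhibitor (0.92). Fgfrl1, a decoy receptor of fibroblast growth factors, was among the nearest of both Ascl2 (0.92) and Ephb3 (0.91). Axin2 was nearest to Troap and Dnmt3b (both 0.79), Smoc2 to Irf2bp1 (0.91), Ephb2 to Aspg (0.85), Sox9 to Flvcr2 (0.89), Myc to Bend5 (0.87) and Lrig1 to Pdlim3 (0.92). None of these neighbours was called between the diets.

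The other genes of the pathway were counted in lists. Of 100 genes in 7 Wnt lists, 90 were on the array and 55 had a signal well above background on all 7 arrays of the NPD, of the HPD or of both. The HPD mean was higher for 50 and lower for 40, with a median difference of 0.088 (0.105 over all probes). At an unadjusted p below 0.05 there were 8 of these genes, 5 higher and 3 lower, and 0 were called by limma. Of all probes, 5.86% reached this level with a higher and 5.55% with a lower HPD mean, so the share of 8 in 90 was near the background.

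Among the ligands, Wnt1 had a difference of 0.52 ± 0.16 (SE; adjusted p = 0.417, exact permutation p = 0.00932), with 7 of 7 HPD rats above the NPD mean, and Wnt3, a ligand made by epithelial cells, had -0.34 ± 0.32 with 3 of 7 above, while 13 of the 18 ligands on the array were not well above background throughout either diet. Among receptors and their partners, Lgr4, the relative of Lgr5 that is found throughout the crypt, had 0.33 ± 0.20 (5 of 7 rats above). The Frizzled receptors Fzd1 and Fzd5 had -0.25 ± 0.28 (2 of 7 above) and 0.20 ± 0.25 (4 of 7 above). Rnf43, a ubiquitin ligase that removes Frizzled from the membrane, had -0.10 ± 0.15. Of the secreted inhibitors, Sfrp5 had 0.26 ± 0.12 and Sfrp2 -0.40 ± 0.24 (SE, n = 7 per diet), and neither was called.

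In the destruction complex, Gsk3b, the kinase that marks β-catenin for degradation, had -0.25 ± 0.11 with 1 of 7 HPD rats above the NPD mean, and Apc2 had 0.27 ± 0.11 with 7 of 7 above. Tcf7l2, the main TCF of the intestine, had 0.40 ± 0.30, and Pygo2, a nuclear cofactor of β-catenin, -0.35 ± 0.18. The largest differences in the Wnt lists among genes above background were in targets, where Nkd2, a feedback inhibitor, had 1.12 ± 0.54 and Sp5, a transcription factor switched on by Wnt, 1.11 ± 0.51, each with 6 of 7 HPD rats above the NPD mean. Both varied widely among rats (SD 0.91 to 1.18 in each diet) and neither was called (exact permutation p = 0.0868 and 0.0717). Mmp7, a matrix protease that is also listed among the Paneth markers, had -0.75 ± 0.30 with 1 of 7 above.

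Outside the Wnt lists, 15 other stem and progenitor genes gave 9 higher and 6 lower means. Of these 15 genes, 5 had an unadjusted p below 0.05 in limma (3 higher and 2, Cdca7 and Clu, lower) and 0 were called. Of all probes, 11.4% reached this p and 0.056% were called. Among the genes of this list that were well above background, Cdca7 (-0.53 ± 0.20) and Clu (-0.51 ± 0.21), a chaperone linked to regenerating stem cells, had the largest differences. Msi1, an RNA-binding protein of stem cells that was well above background on 0 of 14 arrays, had 0.52 ± 0.25. Efnb2, a ligand of the Eph receptors, had 0.36 ± 0.12, with 7 of 7 HPD rats above the NPD mean (adjusted p = 0.417, exact permutation p = 0.00291), and Efnb3, another such ligand, had -0.30 ± 0.22. Of 16 Myc targets, 9 were higher and 7 lower, with Polr1b, a subunit of RNA polymerase I, at -0.53 ± 0.13 (0 of 7 HPD rats above the NPD mean, exact permutation p = 0.00175) and Cdk4, a cell cycle kinase, at -0.57 ± 0.20. Mxd1 and Mxd4, which compete with Myc for its partner Max, had 0.20 ± 0.20 and 0.15 ± 0.16. In the ErbB list, which Lrig1 acts upon, Hbegf had -0.87 ± 0.46 and Erbb3 -0.13 ± 0.14. In the BMP list, whose signals oppose Wnt along the crypt, the HPD mean was higher for 12 of 14 genes (median 0.24). Over all 30367 probes it was higher for 19496, with a median of 0.105. Of the 14 genes, 7 were well above background, with a median of 0.145 (0.048 over all such probes). The ligand Bmp2 had 0.26 ± 0.28 and the receptor Bmpr2 -0.35 ± 0.15. Over all 13 pathway lists, 163 genes were on the array, 18 had an unadjusted p below 0.05 (9 higher and 9 lower) and 0 were called. That p was reached by 11.4% of all probes.

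**Figure D5:**
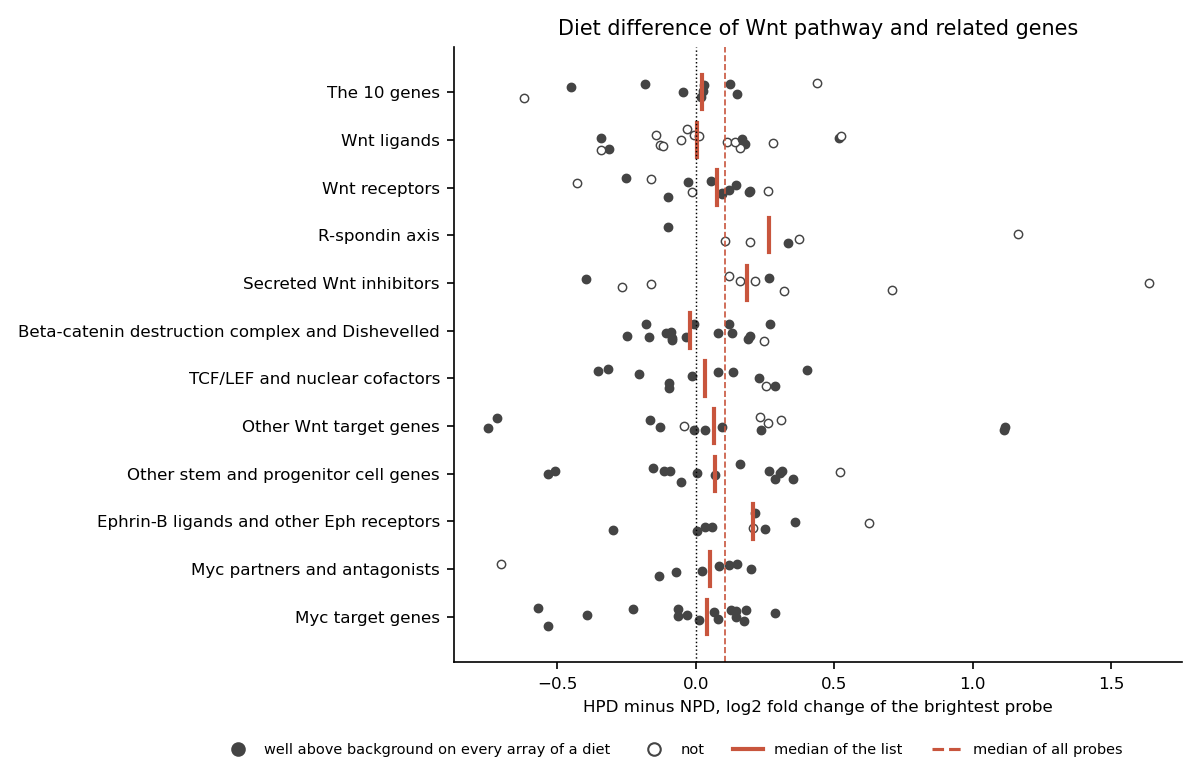
Log2 fold change (HPD minus NPD, x axis) of the brightest probe of each gene in the Wnt pathway and related lists (y axis), with filled points for genes well above background on every array of a diet. Red bars mark the median of a list and the dashed line the median of all probes (0.105). List medians lie between -0.022 and 0.265.

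The markers of the cell types that surround stem cells in the crypt were set beside these values. Deep crypt secretory and Paneth markers had a lower HPD mean in 5 of 6 genes (median -0.39, range of the list mean 4.07 to 4.71 in NPD and 3.54 to 4.58 in HPD rats), with Pla2g2a at -0.73 ± 0.36 beside Mmp7. Of this list, Mmp7 was also counted among the Wnt targets and Lyz2 among the immune markers. Goblet markers were higher in 4 and lower in 5 of 9, with Spink4 at 1.82 ± 0.42 (7 of 7 HPD rats above the NPD mean, exact permutation p = 0.00408, adjusted p = 0.417) and Agr2 at -0.63 ± 0.24. Cycling markers were higher in 9 and lower in 6 of 15 (median 0.044), with Top2a at -0.68 ± 0.27 and Mcm6 at -0.56 ± 0.25. Surface absorptive markers were higher in 9 of 11 (median 0.17), with Slc26a3 at 0.33 ± 0.15 and Scnn1a at -0.38 ± 0.23. Epithelial markers were lower in 5 of 8, with Krt19 at -0.36 ± 0.14 and Vil1 at -0.26 ± 0.25, and enteroendocrine markers in 4 of 7, with Chga at -0.29 ± 0.28 and Sct at 0.23 ± 0.20. Tuft cell markers were lower in 5 of 6, with Trpm5 at -0.48 ± 0.32 and Alox5ap at -0.40 ± 0.28. Of markers from outside the epithelium, immune ones were lower in 8 of 14 (Cd74 at -0.62 ± 0.27, Lyz2 at -0.56 ± 0.24). Stromal and muscle ones were higher in 9 of 14 (Des at -0.56 ± 0.42, Myh11 at -0.48 ± 0.20). However, the 9 stromal and muscle genes well above background had a median of -0.08, against 0.048 over all such probes. Red blood cell markers were higher in 5 of 5 (Hba-a2 at 0.52 ± 0.17, Hbb-b1 at 0.41 ± 0.79). Of all 30367 probes, 19496 had a higher HPD mean. None of the 94 marker genes on the array was called by limma, and 16 had an unadjusted p below 0.05, a level reached by 11.4% of all probes. The part of these levels in the values of the 10 genes was not tested.

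No processing setting changed the call. Over 36 settings, among them other signal columns, normalizations and the deposited table, the number of the 10 genes called was 0 each time, including normexp background correction with slide as a block, where 27.9% of all probes were called. Ascl2 and Lrig1 had a lower HPD mean in all 36 settings (Ascl2 from -0.66 to -0.23 and Lrig1 from -0.27 to -0.10), and Axin2 a higher one in all 36 (0.010 to 0.22). The other genes measured on all arrays, Smoc2, Ephb2, Ephb3, Sox9 and Myc, changed sign between settings around 0. Some other genes of the pathway were called in part of the settings. Gsk3b, Cdk4, Cad, an enzyme of pyrimidine synthesis, and Polr1b were called lower in the HPD group in 6 settings each. Rspo3, an R-spondin not well above background on all arrays of either diet, was called higher in the same 6. These were normexp alone and, with slide as a block, mean pixel, median pixel, normexp, the deposited table and HPD replicate 1 left out. All but the first were chosen after seeing the data. The 6 settings called 5.4% to 27.9% of all probes.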

How the data were processed

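Samples were grouped by the diet in their labels. The authors deposited the scanner output of 14 arrays (Agilent Feature Extraction 10.7.3.1), with an intensity per spot, and also log2 values per gene name, which equalled the median pixel intensity, within 0.01 and after 1 shift per array, for 100% of the values under gene names shared with the scanner output. The study removed 2 outlying rats, not analysed here. Here, after removal of controls and of spots with an outlier mark, log2 of the background-subtracted intensity was taken, the median of each array was subtracted, and the mean over a probe's spots was used. Diets were compared with limma 3.58.1 (lmFit, eBayes, diet as the only term, R 4.3.3, files read with data.table, version 1.17.8) over 30367 probes, with q below 0.1 as the threshold, and by exact two-sided permutation over 3432 splits of the arrays or 1225 within slides. A probe was well above background where at least a share of 0.5 of its spots was. The number of arrays limits the precision. The fit was tested on simulated data.

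The members and lists were chosen with earlier results of these data known. Named genes were all probes of the members, in each other list the called genes and the 2 largest differences among genes well above background, and the 3 nearest patterns of each member. Cad, Rspo3 and Msi1 fell outside this rule and were named after their values were seen. The brightest probe stood for a gene. Replicate numbers were not taken to pair the rats. The alternatives were other signal columns, centrings, normalizations and filters, the deposited table, slide or replicate number as a block, and leaving out each array. The slide combined with another signal or without HPD replicate 1 was added after seeing the data. The deposited log2 file held 0 columns of other samples. Genes were named as in the array design.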

Additional observations from a re-analysis of the deposited data

Results flagged for a closer look

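Among 24 groups of 7 values (the 12 probes in each diet), 1 had a value far from the rest. The Lgr5 probe A_64_P102796, which has a single spot per array, read 0.951 in HPD replicate 1, and the next highest HPD rat read -1.805, so the gap was 0.712 of the range of the group. The other Lgr5 probe read -3.219 on the same array and was not well above background there. At the limit used here, chance alone marks about 1 in 20 groups.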

How the results depend on the processing

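No gene of the set was called in any of the 36 settings, and Ascl2, Olfm4, Axin2, Lrig1 and the brighter Lgr5 probe kept their direction in all settings that gave them a value. The other Lgr5 probe was lower in the HPD group in 23 settings and higher in 8. The count of all probes called, 17, was 27 with slide as a block, 5142 with normexp and 9 to 151 when single arrays were left out, the highest without HPD replicate 1. With replicate number as a block it was 8; same-numbered rats correlated from -0.163 to 0.67, so the numbers were not taken to pair them. Settings chosen after seeing the data added slide as a block to another setting and called 3794 probes (mean pixel signal), 3360 (median pixel signal), 40 (cyclic loess), 8479 (normexp), 2767 (deposited table) and 1640 (HPD replicate 1 left out). The cause of these counts was not tested. Pathway genes called, 0 at first, were 26 with normexp and, with slide as a block, 22 (mean pixel), 19 (median pixel), 42 (normexp), 18 (table) and 9 (without HPD replicate 1). Marker genes called were 14 with normexp, 0 to 1 when single arrays were left out, and in the same order with slide 10, 9, 21, 9 and 5. The lists held 163 pathway and 94 marker genes on the array. Of all probes, 16.9% were called with normexp and, in the same order with slide, 12.5%, 11.1%, 27.9%, 10.5% and 5.4%. The log2 difference changed sign for Smoc2 (0.125) with normexp (-0.027) and the table (-0.043), and with slide added to the mean pixel (-0.059), median pixel (-0.062), normexp (-0.102) and table (-0.087) settings. For Ephb2 (0.027) it was -0.018 (mean pixel), -0.016 (median pixel), -0.046 (centred on the mean), -0.035 (normexp) and -0.057 (table), and with slide added -0.047, -0.043, -0.064 and -0.07 for mean pixel, median pixel, normexp and table. For Sox9 (0.028) it was -0.046 (centred on the mean), -0.011 (table) and -0.008 (slide), and with slide added -0.007 (mean pixel), -0.006 (normexp) and -0.019 (table). For Myc (0.020) it was -0.081 (mean and median pixel), -0.054 (centred on the mean), -0.118 (normexp), -0.122 (table) and -0.004 (slide), and with slide added -0.091, -0.09, -0.13 and -0.117 for mean pixel, median pixel, normexp and table. For Ephb3 (-0.047) it was 0.031 with slide as a block and HPD replicate 1 left out. Leaving out single arrays gave 0.015 to 0.291 for Smoc2, -1.153 to -0.265 for Olfm4, -0.657 to -0.23 for Ascl2, 0.03 to 0.223 for Axin2, -0.246 to -0.099 for Lrig1, 0.005 to 0.65 for Lgr5, -0.062 to 0.134 for Ephb2, -0.132 to 0.117 for Ephb3, -0.042 to 0.125 for Sox9 and -0.038 to 0.102 for Myc. Low signal limits Lgr5 and Olfm4 most, which were well above background on 7 of 14 arrays (the brighter Lgr5 probe) and on 2 of 7 in each diet (Olfm4).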
